A study of Mus musculus with 16 samples.

Results

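The genes described here are 10 that encode or mark the junctions and the cytoskeleton of epithelial cells. They are the simple-epithelium keratins Krt7, Krt8, Krt18 and Krt19, the desmosomal protein Dsp, the tight junction claudins Cldn6 and Cldn7, the epithelial cell adhesion molecule Epcam, and the cadherins Cdh1 (E-cadherin) and Cdh2 (N-cadherin). The rule was a list of names and used no measured value. All 10 were found among the 29629 genes of the single-cell table and among the 47729 genes of the bulk table. The single-cell samples followed ScxGFP iPSCs, mouse induced pluripotent stem cells with a green fluorescent reporter of the tendon transcription factor Scleraxis (Scx), which had been grown on feeder cells and brought to a mesodermal state. T0 is that starting state, and T3, T6 and T9 are cells after 3, 6 and 9 further days with 10 ng/ml TGF-β2. No later plate went without TGF-β2, so time in culture and TGF-β2 cannot be told apart. Each time comprised 3 plates of sorted cells, one cell to a well, read by CEL-Seq2, which counts unique molecular identifiers (UMIs) at the 3′ ends of transcripts. The bulk samples were Achilles tendons of 2-week-old mice, 2 from wild-type animals (Scx_Wt) and 2 from littermates lacking functional Scx (Scx_KO).

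Of 4608 wells, 4594 held at least 200 detected genes and were kept, with 1147 cells from the T0 plates, 1151 from T3, 1149 from T6 and 1147 from T9. Plates held 1921125 to 4657093 UMIs, and the median cell held 10175, 5703, 8794 and 7900 UMIs at the 4 times. Because well barcodes come from one set, 370 of them occurred among the kept cells of all 12 plates. The bulk samples held 11188270 to 12398560 reads. Values per plate are UMIs per 1000000 UMIs of the plate (CPM), and differences between times are log2 fold changes from edgeR fitted over all 12 plates. Nothing in the labels says that the plates came from separate cultures, so p-values measure only the spread between these plates. Scaling by plate totals alone was a choice made after seeing the data. It moved the median log2 fold change of all genes against T0 from 0.01 to -0.21 at T3 and from -0.02 to -0.49 at T9. The genes called higher and lower changed from 2279 and 2160 to 1524 and 2369 at T3 and from 3155 and 2895 to 1755 and 4468 at T9.

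Epithelial cells are held together by adherens junctions built on E-cadherin, by desmosomes, in which Dsp ties cadherins to keratin filaments, and by tight junctions made of claudins. Mesenchymal cells largely lack these and often carry N-cadherin. The loss of E-cadherin with a gain of N-cadherin is called the cadherin switch, and it accompanies the epithelial-mesenchymal transition (EMT), in which factors of the Snail and Zeb families bind the E-box letters CAGGTG in promoters of epithelial genes. Mesoderm arises through such a transition from the pluripotent epiblast, which is itself an epithelium.

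In the mouse genome, build GRCm38, 7 of the members lie on chromosomes 15, 11 and 17. Krt7 (ENSMUSG00000023039, chr15:101411043-101430313, plus strand), Krt8 (ENSMUSG00000049382, chr15:101996698-102004482, minus strand) and Krt18 (ENSMUSG00000023043, chr15:102028180-102032027, plus strand) lie near each other on chromosome 15. Krt19 (ENSMUSG00000020911, chr11:100140810-100148665, minus strand) and Cldn7 (ENSMUSG00000018569, chr11:69964779-69967885, plus strand) lie on chromosome 11. Cldn6 (ENSMUSG00000023906, chr17:23679249-23682446, plus strand) and Epcam (ENSMUSG00000045394, chr17:87635979-87651129, plus strand) lie on chromosome 17. Dsp is ENSMUSG00000054889 at chr13:38151294-38198577 (plus strand) and Cdh1 is ENSMUSG00000000303 at chr8:106603351-106670246 (plus strand). Exons of Krt7, Krt8 and Dsp share 77, 101 and 499 bases with antisense genes, and Krt8 has 1 processed pseudogene that matches it at 98.6% over 941 bases, so some of their reads may be assigned with less certainty.

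Promoters are shown because the members fell together at the first step of the induction. RefSeq promoters (GRCm38.p6, 250 bases before to 50 after a start) were matched for 7 of the 10 members, with 2 starts for Cldn7, and none was matched for Krt19, Cdh1 and Cdh2. The letters CAGGTG, read on either strand, occurred in a promoter of 7 of 7 of these members, against 20.2% of all 32851 promoters. One of the 2 Cldn7 promoters held no match. The windows of 6 members below run 5′ to 3′ on the strand of the gene, with the E-box letters in capitals.
Krt7: gccctgtcccCACCTGtgtgcgctca
Krt18: gggctaacacCACCTGctatcctttg
Dsp: agaagccgacCAGGTGtggcctgggc
Cldn6: gaaacgcacgCAGGTGgctatcgccg
Cldn7: acttccggttCAGGTGagtgtccctt
Epcam: ccataaaaccCAGGTGtggaggagaa
The capitals begin 44, 214, 93, 57 and 19 bases before the start in Krt7, Krt18, Cldn6, Cldn7 and Epcam, and 3 bases after it in Dsp. The windows lie at chr15:101412349-101412374 (plus strand) for Krt7, chr15:102027992-102028017 (plus strand) for Krt18 and chr13:38151287-38151312 (plus strand) for Dsp. Those of Cldn6, Cldn7 and Epcam lie on the plus strand at chr17:23679262-23679287, chr11:69965354-69965379 and chr17:87635950-87635975. The promoters of Cldn6, Cldn7 and Epcam each hold a second match. The same promoters were searched on both strands for 4 other letter strings, none of which overlaps CAGGTG. The GC box GGGCGG was present for 5 of 7 members (35.7% of all promoters) and the Tead letters GGAATG for 2 of 7 (14.7%). The Grhl letters AACCNGTT and the AP-1 letters TGANTCA were found for 0 of 7, against 2.09% and 7.81% of all promoters. A match is a run of letters and not evidence of binding.

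From T0 to T3, 9 of the 10 members fell at an adjusted p of 0.05 or less (edgeR quasi-likelihood test with Benjamini-Hochberg adjustment over 13372 genes). Over all genes tested, 16.2% were called lower and 17.0% higher. The median log2 fold change of the members was -3.24, beside 0.01 for all genes. From T0 to T9, 8 of 10 were lower, where 21.6% of all genes were called lower and 23.6% higher, and the median of the members was -2.25 beside -0.02. All 10 members passed the filter on low counts. A gene can pass it on the T0 plates alone, and in a fit of the T3 and T6 plates alone 6 of the 10 passed.

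**Figure D1:**
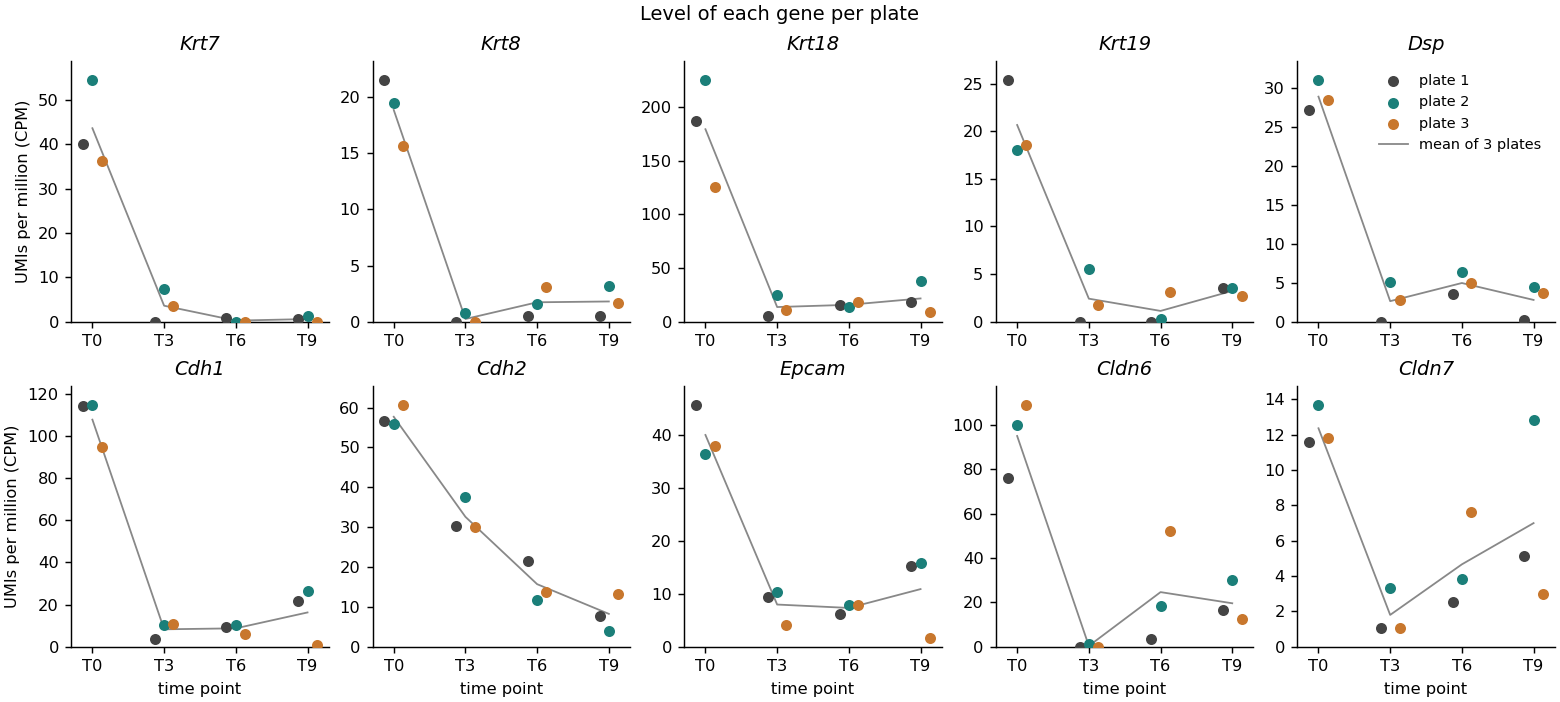
Level of each of the 10 members in UMIs per 1000000 (CPM, vertical axis, linear and starting at 0 in each panel) on the 3 plates of T0, T3, T6 and T9 (horizontal axis), one point per plate with a line through the means. Every member but Cdh2 drops sharply at T3, whereas Cdh2 declines in steps from 55.8-60.5 CPM at T0 to 3.85-13.3 CPM at T9.

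All 4 keratins fell at T3 and stayed low. Krt18, the type I partner of Krt8 in simple epithelia, stood at 187, 225 and 126 CPM on the T0 plates and at 5.21, 25.1 and 10.8 CPM at T3. It then measured 15.9, 13.4 and 18.1 CPM at T6 and 18.2, 37.9 and 8.95 CPM at T9. Every later plate lay below every T0 plate. The log2 fold change was -3.50 (SE 0.50, adjusted p = 0.000121 by edgeR) at T3 and -2.48 (SE 0.46, adjusted p = 0.000618 by edgeR) at T9, both against T0.

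Krt8, the type II partner, gave 21.5, 19.5 and 15.6 CPM at T0 and 0, 0.737 and 0 CPM at T3. In UMIs this was 242 at T0 and 2 at T3, a ratio of 0.0140 per UMI sequenced (exact 95% interval 0.00168 to 0.0510). All intervals given here cover counting error only. Krt8 stayed between 0.512 and 3.09 CPM at T6 and between 0.543 and 3.21 CPM at T9, with a log2 fold change of -2.90 (SE 0.60, adjusted p = 0.00139 by edgeR) from T0 to T9.

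Krt7, a keratin of simple and glandular epithelia, gave 40.2, 54.4 and 36.3 CPM at T0 and 0, 7.37 and 3.48 CPM at T3. It was at 0 on 2 of the 3 T6 plates and on 1 T9 plate, with 3 UMIs in all at T6 against 557 at T0, a ratio of 0.00607 (exact 95% interval 0.00125 to 0.0178). Krt7 had the largest fall of the members from T0 to T9, with a log2 fold change of -5.58 (SE 0.75, adjusted p = 4.2e-05 by edgeR). From T3 to T6 its log2 fold change was -3.64 (SE 1.04, adjusted p = 0.0659 by edgeR), which missed the threshold. The step was called without the cells that held pluripotency markers (-4.82, adjusted p = 0.0316 by edgeR). No other keratin member was called at this step, with values of -1.02 for Krt19, 0.24 for Krt18 and 2.62 for Krt8, and the differences between keratins were not tested.

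Krt19, the smallest of the acidic keratins, gave 25.3, 18.1 and 18.6 CPM at T0, 0 to 5.53 CPM at T3, 0 to 3.09 CPM at T6 and 2.65 to 3.53 CPM at T9. Its log2 fold changes against T0 were -2.82 at T3 (adjusted p = 0.00877) and -2.14 at T9 (adjusted p = 0.0193), both by edgeR. The T9 call was lost without T0 plate 1 (adjusted p = 0.0732 by edgeR). It was also lost with a class of plate, by share of reads outside features, as a covariate (adjusted p = 0.0599 by edgeR). Of 10 other keratins listed, such as the epidermal Krt5 and Krt14, 6 were in the single-cell table and 1 was abundant enough to be tested, and it was not called.

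Dsp, which links desmosomal cadherins to keratin filaments, gave 27.3, 31.0 and 28.5 CPM at T0. It fell to 0, 5.16 and 2.79 CPM at T3, measured 3.58 to 6.36 CPM at T6 and ended at 0.272, 4.50 and 3.65 CPM at T9. The log2 fold change from T0 to T9 was -2.93 (SE 0.60, adjusted p = 0.00127 by edgeR). Of the other desmosomal genes, 6 of 10 were tested, 3 were lower and 2 higher at T9 than at T0. The desmosomal cadherins Dsc2 (log2 fold change -2.69) and Dsg2 (-1.41) and the plaque protein Pkp2 (-1.21) fell, while Pkp4 rose by 1.20 and Jup, or plakoglobin, which also serves adherens junctions, rose by 0.90. Scaled by plate totals, Jup was not called (0.41, adjusted p = 0.194 by edgeR). The genes that fell thus include the transmembrane cadherins of the desmosome.

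Cdh2 did not rise as Cdh1 fell, although their order changed. Mean levels of Cdh1 and Cdh2 were 108 and 57.7 CPM at T0, 8.25 and 32.6 CPM at T3 and 8.72 and 15.7 CPM at T6. At T9 Cdh1 was again above Cdh2 on plates 1 and 2 but not on plate 3. Cdh1 fell steeply at the first step, from 114, 114 and 94.4 CPM at T0 to 3.64, 10.3 and 10.8 CPM at T3. Its log2 fold change was -3.44 (SE 0.69, adjusted p = 0.00177 by edgeR). It measured 9.47, 10.5 and 6.18 CPM at T6 and 21.7, 26.3 and 0.663 CPM at T9, and the T9 plates differed widely from each other, with plate 3 far below the others.

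Cdh2 (ENSMUSG00000024304, chr18:16588877-16809246, minus strand) fell as well. It gave 56.7, 55.8 and 60.5 CPM at T0, 30.2, 37.6 and 30.0 CPM at T3, 21.5, 11.8 and 13.8 CPM at T6 and 7.60, 3.85 and 13.3 CPM at T9. The ranges of T0 and T3 did not overlap, yet the first step, of -0.60 on the log2 scale (SE 0.24, adjusted p = 0.0722 by edgeR), missed the threshold. It passed without the cells that held pluripotency markers (-0.68, adjusted p = 0.0437 by edgeR). The second step was -1.04 (SE 0.26, adjusted p = 0.0345 by edgeR), and the whole change from T0 to T9 was -2.36 (SE 0.27, adjusted p = 9.41e-06 by edgeR). Leaving out any T3 plate, or T6 plate 2 or 3, lost the call of the second step, with adjusted p of 0.0532 to 0.143 by edgeR.

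Other cadherins rose over the same days. Cdh11, or OB-cadherin of mesenchyme and bone, rose from 138, 132 and 154 CPM at T0 to 357, 354 and 609 CPM at T9, with a log2 fold change of 2.09 (SE 0.18, adjusted p = 6.76e-07 by edgeR). Cdh3, or P-cadherin, gave 29.6, 23.4 and 27.7 CPM at T0 and 83.1, 53.3 and 105 CPM at T9, a rise of 2.05 (SE 0.38, adjusted p = 0.000615 by edgeR). It was already at 83.6 and 73.2 CPM on T3 plates 2 and 3 but at 14.1 CPM on plate 1. Of the other cadherin-junction genes, 9 of 10 were tested and 4 were lower at T9 than at T0, among them the catenin Ctnna1 (-1.30) and the nectin-binding Afdn (-1.24). Cdh11 and Cdh3 were the 2 that were higher.

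**Figure D2:**
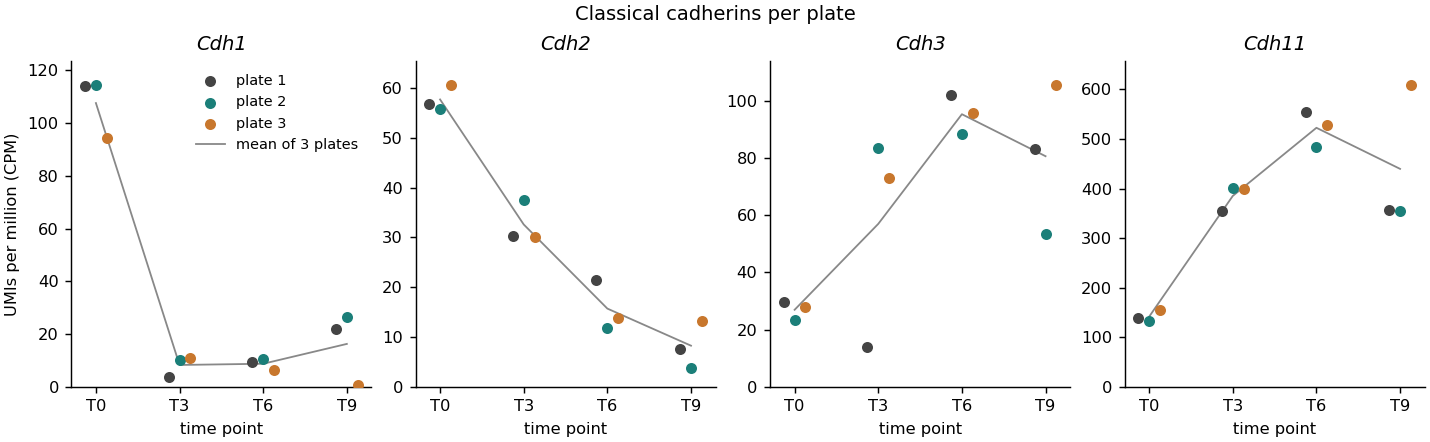
Levels of Cdh1, Cdh2, Cdh3 and Cdh11 in UMIs per 1000000 (CPM, vertical axis, linear) on the 3 plates of T0, T3, T6 and T9, one point per plate with a line through the means. Cdh1 and Cdh2 both end below their T0 plates, and Cdh3 and Cdh11 both end above theirs.

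Both cadherins were sparsely detected in single T0 cells, and few cells held both. Of 1147 cells, 188 held UMIs of Cdh1 only, 348 of Cdh2 only, 76 of both and 535 of neither. Cdh2 was detected in 28.8% of the Cdh1-positive cells and in 39.4% of the Cdh1-negative cells, although cells positive for one gene tend to be deeper. After each cell was thinned to 3000 UMIs, which left out 76 shallower cells, the counts were 121, 141, 7 and 802, and Cdh2 was found in 5.47% of Cdh1-positive and 15.0% of Cdh1-negative cells. Without the cells with pluripotency markers the unthinned shares were close, 36.2% and 38.8%, and the thinned ones were 6.98% and 15.0%, the former resting on 6 cells. On plate 2 the order without them was the other way round, with 16.0% of thinned Cdh1-positive and 12.7% of Cdh1-negative cells. These shares were not tested. At T9, 37 cells held Cdh1 only, 64 Cdh2 only, 1 both and 1045 neither.

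Of the tight junction members, Cldn6 was called higher from T3 to T6. This gene, a claudin of early embryonic epithelia, gave 76.0, 100.04 and 109 CPM at T0 and 0, 1.11 and 0 CPM at T3, that is 3 UMIs against 1190, a ratio of 0.00426 (exact 95% interval 0.000878 to 0.0125). It was again present at T6, at 3.33, 18.1 and 52.3 CPM. Of its 290 UMIs at T6, 3 cells held at least 50% and the highest cell 76, and the 6 cells with at least 5 of the 9 epithelial members (all but Cdh2) held 72.4%. The log2 fold change from T3 to T6 was 5.88 (SE 1.17, adjusted p = 0.0107 by edgeR), where 2.61% of all genes were called higher and 1.63% lower, and Cldn6 and Cdh2 were the only members called. Without T3 plate 1 or plate 3 the Cldn6 step missed the threshold (adjusted p = 0.0511 and 0.0574 by edgeR). At T9 it measured 16.6, 29.9 and 12.3 CPM, still -1.74 below T0 (SE 0.62, adjusted p = 0.0335 by edgeR). This last call was lost on leaving out any of T0 plates 2 and 3 or T9 plates 1 and 3 (adjusted p of 0.0787 to 0.0958), in DESeq2 (adjusted p = 0.108) and without the pluripotency-marker cells (adjusted p = 0.0815).

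Cldn7, a claudin of many epithelia, gave 11.6, 13.7 and 11.8 CPM at T0 and 1.04, 3.32 and 1.05 CPM at T3. The fall was -2.54 (SE 0.63, adjusted p = 0.00753 by edgeR). It measured 2.56, 3.82 and 7.61 CPM at T6 and 5.16, 12.8 and 2.98 CPM at T9. From T3 to T6 its log2 fold change was 1.39 (SE 0.67, adjusted p = 0.290 by edgeR), which was not called, and the difference from the Cldn6 step was not tested. The difference between T9 and T0 was -0.27 (SE 0.52, adjusted p = 0.695 by edgeR) and was not called. Of the other tight junction genes, 8 of 16 were tested and 4 fell from T0 to T9, among them the claudins Cldn4 (-3.44) and Cldn1 (-3.20) and the scaffold protein Tjp1 (-0.48). Cldn1 first rose by 2.22 at T3 (adjusted p = 0.00341 by edgeR), against the direction of both claudin members.

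Epcam, a surface protein of epithelial and pluripotent cells, gave 45.5, 36.4 and 37.9 CPM at T0 and 9.37, 10.3 and 4.18 CPM at T3. Its log2 fold change was -2.13 (SE 0.56, adjusted p = 0.0102 by edgeR), the smallest of the 9 falls, and leaving out T3 plate 3 lost the call (adjusted p = 0.0545 by edgeR). It measured 6.14, 7.95 and 7.85 CPM at T6 and 15.2, 15.7 and 1.66 CPM at T9. The difference of T9 from T0 was -1.27 (SE 0.52, adjusted p = 0.0603 by edgeR), past the threshold when plates were scaled by total UMIs (-1.87, adjusted p = 0.0117 by edgeR). Like Cdh1, Epcam was low on T9 plate 3, which held 0 pluripotency-marker cells against 5 and 10 on plates 1 and 2. The 8 pluripotency markers summed to 160, 296 and 0.332 CPM on these plates, and their part in the difference was not tested.

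From T6 to T9 edgeR called 0 of 10 members, where 1.62% of all genes were called in either direction. At an unadjusted p under 0.05 it gave 1 member, Cdh2, as lower, and DESeq2 also called 0 members. The median log2 fold change of the members was 0.83. Without T9 plate 3, Cdh1 (1.88, adjusted p = 0.00662 by edgeR) and Epcam (1.499, adjusted p = 0.0196 by edgeR) passed the threshold as higher at T9.

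The fall at T3 came with fewer positive cells. At T0, 24.8 ± 3.20% of cells held a UMI of Cldn6, 23.0 ± 6.04% one of Cdh1, 21.6 ± 4.91% one of Krt18 and 12.3 ± 1.82% one of Epcam (SD, n = 3 plates). At T3 these shares were 0.261 ± 0.452%, 1.91 ± 0.841%, 3.21 ± 1.57% and 2.78 ± 1.66%. Cdh2 was held by 37.0 ± 3.83% of cells at T0, 15.6 ± 4.51% at T3 and 5.66 ± 2.99% at T9. T3 cells were shallower, so cells were also thinned to 3000 UMIs. All 3 plates of T3 and all 3 plates of T9 then lay below all T0 plates for 10 of 10 members, a pattern seen for 35.3% and 42.5% of all genes tested. A gene can be among those tested through its T0 plates alone. One near 0 at a later time, such as Krt8 and Cldn6 at T3, could then only lie below T0, which limits what this count shows. Thinned to 3000 UMIs, Krt18 was held by 10.4 ± 1.95% of T0 cells, 1.62 ± 0.512% of T3 cells and 3.33 ± 1.56% of T9 cells (SD, n = 3 plates).

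A small number of T0 cells carried a large share of the epithelial members' UMIs. The 10 cells richest in Krt18 held 52.9% of its 2309 UMIs, and 140 of the 248 positive cells held 1 UMI. Counting the 9 members other than Cdh2, 465 of the 1147 T0 cells held none, 350 held 1 and 58 held at least 5. These 58 cells lay on all plates (23, 19 and 16) and, having been picked for these members, held 80.8% to 87.1% of the UMIs of the 4 keratins and of Cldn7. They held 68.2% of the Cldn6, 58.1% of the Cdh1, 54.0% of the Dsp and 45.5% of the Epcam UMIs. Their median depth was 14956 UMIs, against 10175 over all T0 cells. Cells with at least 5 of the 9 were fewer later, with 2 on the T3 plates, 6 on T6 and 12 on T9.

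T0 also held 118 cells with UMIs of at least 3 of 8 pluripotency markers, which include Pou5f1, Sox2 and Nanog. They numbered 60, 38 and 20 on the 3 plates, and there were 15, 6 and 15 such cells on the T3, T6 and T9 plates. They held 58.6% of the Epcam and 37.5% of the Cdh1 UMIs of T0, but 24.1% of the Krt7, 16.7% of the Krt18, 14.0% of the Krt8 and 6.42% of the Krt19 UMIs, and 7.12% of the Cdh2 UMIs. Only 13 of them were among the 58 cells with at least 5 of 9 members. The 45 others held 62.5% of the Krt7, 73.1% of the Krt8 and 72.2% of the Krt18 UMIs. Epcam UMIs thus lay mostly in the 118 cells with pluripotency markers and keratin UMIs mostly in the 1029 other cells. Per UMI sequenced, the keratins were not all lower in the 118 cells. Pooled levels in the 118 and the other cells were 193 and 180 CPM for Krt18 and 67.0 and 39.6 CPM for Krt7. They were 17.0 and 19.5 CPM for Krt8, 8.50 and 23.2 CPM for Krt19 and 150 and 19.7 CPM for Epcam. Without the 118 cells, and those like them at later times, 10 of 10 members were called lower at T3 and 7 of 10 at T9. In the same fit 2065 and 2865 of all 13089 genes tested were called lower. Here too a gene could pass the low-count filter on the T0 plates alone.

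**Figure D3:**
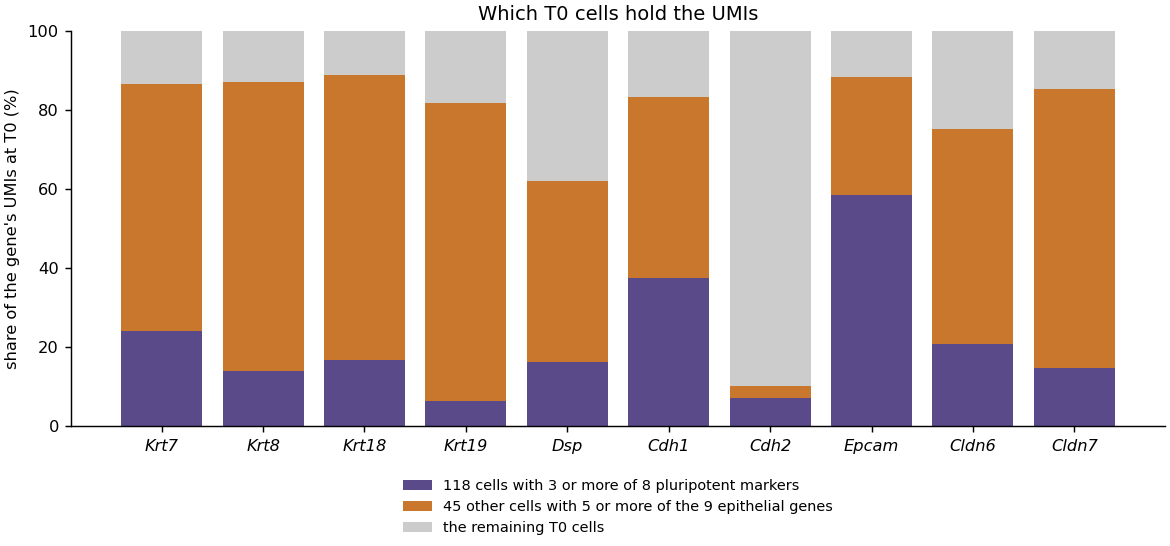
Share of each member's T0 UMIs (percent, vertical axis from 0 to 100, one stacked bar per gene) that lay in the 118 cells with at least 3 pluripotency markers, in the 45 further cells with at least 5 of the 9 epithelial members, and in the other cells. Keratin UMIs lie mostly in the 45 cells, Epcam mostly in the 118, and Cdh2 mostly in the other cells. The 45 cells were picked for members that include the keratins but not Cdh2, so part of this contrast is built in.

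The members other than Epcam were next compared between T0 cells with and without an Epcam UMI, summed per plate with the plate as a block. There were 141 Epcam-positive cells (55, 43 and 43 per plate), 57 of them with pluripotency markers. All 8 other epithelial members were higher in them and Cdh2 was lower, where 15.2% of 11167 genes were called higher and 12.6% lower. A gene can pass the low-count filter on the Epcam-positive sums alone, and one sparse in the negative sums could hardly be called lower. Krt18 stood at 630, 1090 and 729 CPM in the positive and 78.4, 54.6 and 18.4 CPM in the negative cells, a log2 difference of 4.06 (SE 0.28, adjusted p = 1.09e-06 by edgeR). Cdh1 stood at 395, 550 and 515 against 44.9, 28.8 and 19.6 CPM, a log2 difference of 3.95 (SE 0.22, adjusted p = 2.31e-07 by edgeR). The groups did not overlap for either gene.

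Krt7 showed the largest difference of the members, 4.51 on the log2 scale, followed by Cldn7 at 4.11, and Dsp the smallest of the rises, 2.43. Cdh2 stood at 27.2, 14.1 and 28.5 CPM in Epcam-positive and 63.9, 64.0 and 66.2 CPM in Epcam-negative cells. This was a log2 difference of -1.49 (SE 0.23, adjusted p = 0.000382 by edgeR). Without the pluripotency-marker cells the Cdh2 difference was -0.66 and was not called (adjusted p = 0.127 by edgeR), nor was it after thinning (-2.48, adjusted p = 0.0646 by edgeR), while the 8 epithelial members kept their calls in both.

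**Figure D4:**
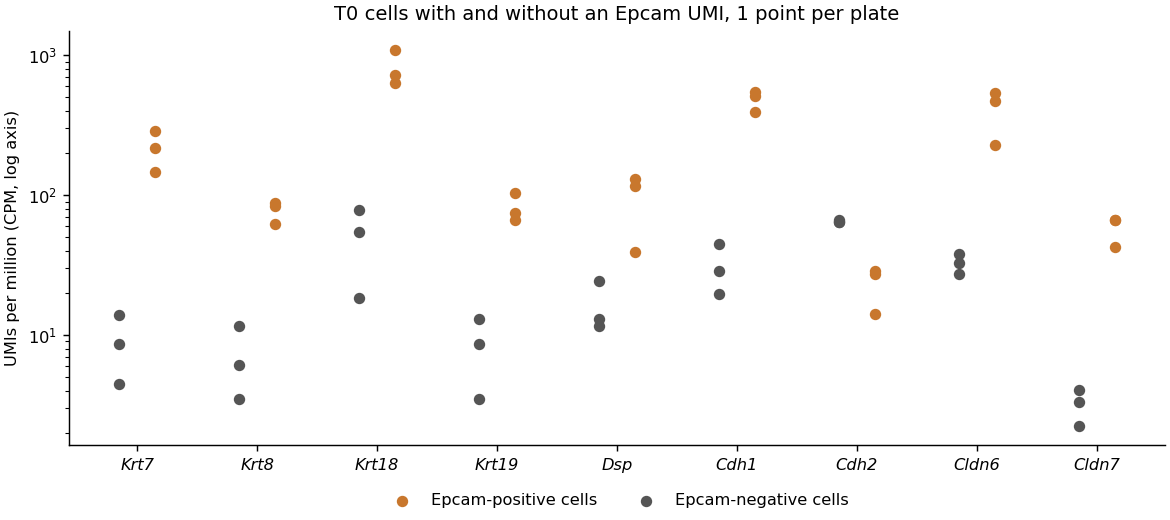
Levels of the 9 other members in UMIs per 1000000 (CPM, vertical log axis) summed over Epcam-positive and over Epcam-negative T0 cells of each plate, one point per plate. The epithelial members lie higher in Epcam-positive cells on all 3 plates and Cdh2 lies lower.

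The pathway lists differed in how many of their genes were called. In Epcam-positive cells 7 of 7 tested desmosomal genes, 9 of 12 tight junction genes and 11 of 12 genes of an epithelial programme were higher, among them Dsg2 (2.89), Cldn4 (3.76), the epithelial transcription factor Grhl2 (3.88) and the protease inhibitor Spint1 (3.82). Over all genes tested, 15.2% were called higher and 12.6% lower. Sparse genes of these lists could again enter the test through the Epcam-positive sums alone, which limits what these counts show. In the epithelial programme Cd24a, a surface glycoprotein, was lower (-0.82). Of the other cadherin-junction genes only Afdn (1.096) and Ctnna1 (0.49) of 8 tested were higher, while Cdh11 was lower (-1.80), and the 1 other keratin tested, Krt10, was not called (-0.92, adjusted p = 0.098 by edgeR). Among the 10 called genes with the largest differences were Bspry (6.04), Arhgap8 (5.91), Fgfbp1 (5.78), Nxf7 (5.76), the ligand Wnt7b (5.71), Fam178b (5.63), Kdf1 (5.61), Cldn3 (5.54) and Ascl2 (5.53), a transcription factor of trophoblast and intestinal stem cells. The 5 with the largest negative differences held at most 1 UMI in the positive cells. Slc8a2 had 35, 32 and 18 UMIs and Eldr 20, 23 and 16 UMIs in the negative cells of the 3 plates, and the others were Cntn4, Adamts20 and Ntm.

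The EMT transcription factors were lower in Epcam-positive cells for 7 of 8 genes. Snai2 (-2.27) and Twist1 (-1.89) differed most, followed by Prrx1 (-1.76), Zeb1 (-1.32), Twist2 (-1.30), Zeb2 (-1.22) and Snai1 (-0.92). Foxc2 (-1.37, adjusted p = 0.058 by edgeR) was not called. Without the pluripotency-marker cells 4 of 8 were called lower, where 389 of all 10676 genes tested were. Of the mesenchymal genes, 4 of 5 tested were lower, among them the intermediate filament Vim (-1.09), and 2 of 5 without the pluripotency-marker cells.

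Over the days of induction the same factors did not rise as the epithelial members fell. From T0 to T3, 4 of 8 were lower and 0 of 8 were higher by edgeR, also by DESeq2 and at an unadjusted p under 0.05. Twist2 fell from 44.2, 35.0 and 34.4 CPM to 9.89, 8.11 and 9.41 CPM, by -1.81 on the log2 scale (adjusted p = 0.000268 by edgeR). Foxc2 (-1.91), Prrx1 (-0.82) and Zeb2 (-0.65) also fell. Snai1 (0.25), Snai2 (-0.24), Zeb1 (0.04) and Twist1 (-0.22) were not called.

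At T9 the factors Twist2 (-3.10), Foxc2 (-3.08), Zeb2 (-1.35) and Twist1 (-0.62) were below T0 and 0 of 8 were above by edgeR and by DESeq2. At an unadjusted p under 0.05, Snai1 alone was higher (0.44, adjusted p = 0.0759 by edgeR), and it turned to -0.04 when plates were scaled by totals. Plates were also sorted into classes by the share of reads outside features. With this class as a covariate, edgeR called 1 of 8 factors higher and 5 lower. Snai1, the founding Snail factor, gave 47.5, 34.3 and 44.1 CPM at T0 and 37.5, 36.0 and 49.1 CPM at T9, which overlap. It rose by 0.85 from T6 to T9 (adjusted p = 0.0494 by edgeR), a call lost with plates scaled by totals. Over all genes, 23.6% were called higher from T0 to T9. Of the mesenchymal genes, 4 of 7 tested rose. They were the surface protein Thy1 (4.64), S100a4 (4.06), the matrix protein Fn1 (2.09) and Vim (1.79), while Cd44 fell by -1.16. Vim went from 680, 533 and 525 CPM at T0 to 1513, 1413 and 1244 CPM at T9 with no overlap. In the epithelial programme 3 of 9 tested genes fell, among them Spint1 (-2.56) and Cd24a (-2.20), where 21.6% of all genes were called lower, so no excess is read from this count. None rose by edgeR or DESeq2, and 1 was higher at an unadjusted p under 0.05 by each.

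The cells with at least 5 of the 9 members at T6 and T9, 18 in all, differed in content from those at T0. Krt18 and Cldn7 were found in 18 of 18, Cldn6, Cdh1 and Epcam in 15 each, Krt19 in 11, Krt8 in 10 and Dsp in 8. Krt7 was found in 1 of 18, against 40 of 58 at T0. The epithelial gene Grhl2 was found in 0 of 18, against 12 of 58.

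Of the 14 genes listed for parietal endoderm, an extraembryonic tissue, 11 were held by at least 14 of these 18 later cells. Gata4, Srgn, Dab2, Lamb1, Lamc1 and Col4a1 were held by 17 of 18, Lama1 and Col4a2 by 16, Gata6 by 15 and Sox17 and Pth1r by 14, but Sox7 by 8, Plat by 5 and Thbd by 1. Of the 8 genes listed for visceral endoderm, Foxa2 was held by 15, Ttr and Hnf4a by 8, Amn and Cubn by 7, Apoa1 by 3, Apob by 2 and Afp by 0. Several of these genes are expressed elsewhere too, such as Srgn in blood and endothelial cells, and of the endothelial markers Pecam1 and Cdh5 were held by 0 of 18. At T0, Gata4 was held by 2, Srgn by 0, Lama1 by 10 and Sox17 by 3 of the 58 cells. The 18 cells were deep, with a median of 18153.5 UMIs against 8287.5 in the 2278 other cells of T6 and T9. Among those others, Gata4 was held by 2.15%, Srgn by 7.42%, Dab2 by 52.8% and Lamb1 by 55.1%. Cdh2 was held by 1 of the 18 and by 202 of the 2278. Over all cells of a plate, the 14 genes of the parietal endoderm list summed to 380 to 611 CPM at T3, where Sox17 and Gata4 were at 0. The sums were 668 to 1394 CPM at T6 and 1184 to 1530 CPM at T9. Such sums include the many other cells that held genes like Dab2 and Lamb1, so they do not describe the 18 cells. These cells were picked for their members and are few, so no test was made and their part in the return of Cldn6 was not tested.

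Over the 12 plates, the genes whose log2 CPM followed each member most closely were taken as a description, since plates of one time share depth and state. The most similar to Cdh1 were Mrpl11 (Pearson r = 0.971), Lncenc1 (0.956) and the pluripotency factor Sall4 (0.942). For Cdh2 they were the gap junction gene Gjc1 (0.978), Alg9 (0.974) and Ogfr (0.967). Krt8 was followed by Gfm1 (0.951), the DNA methyltransferase gene Dnmt3b (0.948) and Brms1 (0.945), and Krt19 by Elovl7 (0.927), Rmi1 (0.915) and Rad17 (0.915). The first 3 neighbours of these 4 members had no gene in common.

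In the Achilles tendons, Scx itself gave 1151 and 996 reads in Scx_Wt and 287 and 296 in Scx_KO, a log2 fold change of -1.88. Most members were near 0 in tendon. Cldn6 had 0 reads in all 4 samples, Epcam 0, 0, 4 and 0, and Cdh1 8, 9, 50 and 1 (Scx_Wt 1 and 2, then Scx_KO 1 and 2), and these 3 were too low to test. The other 7 were tested, and 3 were higher in Scx_KO, where 1.77% of 14602 genes were called higher and 2.07% lower. A gene can pass the low-count filter on the Scx_KO samples alone, and one near 0 in Scx_Wt can then only be called higher. This holds for the 3 members called, so their number is not read against the share of all genes.

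Dsp gave 10 and 2 reads in Scx_Wt and 690 and 475 in Scx_KO, or 0.894, 0.163, 55.7 and 40.3 CPM. The log2 fold change was 6.56 (SE 0.43, adjusted p = 8.52e-05 by edgeR). Krt8 gave 0 and 4 against 88 and 63 reads (5.15, SE 0.87, adjusted p = 0.0121 by edgeR) and Krt18 gave 10 and 3 against 81 and 77 reads (3.57, SE 0.64, adjusted p = 0.0154 by edgeR). All 3 were close to 0 in both wild-type tendons and raised in both knockouts, and all 3 were still called on leaving out any 1 sample. Such a fit has 1 tendon in one group, assumed to vary like the 2 of the other, so it adds little. In bulk tissue, more cells of a type and more RNA per cell cannot be told apart.

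The other members did not follow. Krt7 gave 8, 2, 15 and 11 reads (1.34, adjusted p = 0.543 by edgeR), Cldn7 16, 5, 15 and 13 (0.40, adjusted p = 0.87 by edgeR) and Cdh2 142, 180, 150 and 58 (-0.65, adjusted p = 0.441 by edgeR). Krt19 gave 15, 25, 65 and 7 reads, and its log2 fold change of 0.80 turned to -1.43 without Scx_KO 1. The same knockout sample held the high values of Cdh1 and Epcam.

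**Figure D5:**
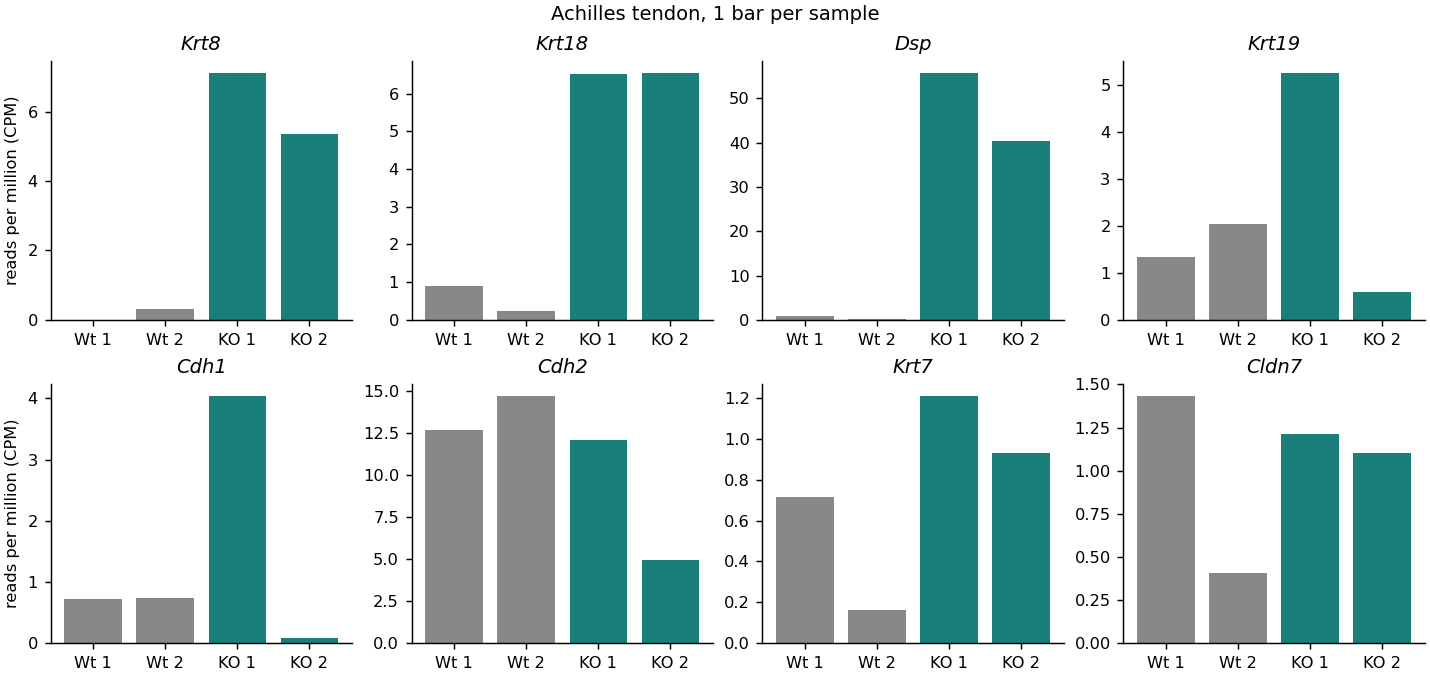
Levels in reads per 1000000 (CPM, vertical axis, linear and starting at 0 in each panel) in the 2 Scx_Wt and 2 Scx_KO Achilles tendons, one bar per sample. Dsp, Krt8 and Krt18 are near 0 in both Scx_Wt samples and higher in both Scx_KO samples, whereas Cdh1 and Krt19 are high in Scx_KO 1 alone.

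Scx_KO 1 stood apart in nerve genes. The 4 Schwann cell markers summed to 650 and 641 CPM in Scx_Wt and to 5712 and 43.0 CPM in Scx_KO. The 8 epidermal genes summed to 23.2 and 18.6 CPM in Scx_Wt and to 60.1 and 63.4 CPM in Scx_KO. Of the keratins on this list, Krt1 had 0 reads in all samples, Krt5 had 0, 0, 11 and 1, and Krt14 had 0, 0, 21 and 0. Krt10, however, had 88, 76, 109 and 92 reads. The rise in the list came mainly from Trp63 (80 and 77 against 381 and 446 reads, 2.40 on the log2 scale) and Sfn (1.39). Skeletal muscle genes summed to 32122 and 59714 CPM in Scx_Wt and to 76392 and 80230 CPM in Scx_KO, tenocyte genes to 165640 and 152534 against 72107 and 83122 CPM, and their part in the rise of the 3 members was not tested.

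Of the junction lists, 1 of 6 tested desmosomal genes, Perp, a tetraspan desmosomal protein, was higher in Scx_KO (28 and 36 against 159 and 190 reads, 2.45 on the log2 scale). The tight junction genes Tjp3 (1 and 0 against 87 and 72 reads, 6.99) and Cldn10 (18 and 11 against 100 and 140 reads, 3.05) were higher and 1 of the 11 tested was lower. Tjp3, near 0 in Scx_Wt, could likewise only be called higher. The desmosomal cadherin Dsg2 had 4 reads in Scx_Wt 1 and 0 elsewhere, and Dsc2 6, 7, 1 and 7, so the rise of Dsp was not matched by these cadherins. Of the EMT factors, edgeR and DESeq2 each called 0 of 8, and 1 was lower at an unadjusted p under 0.05 by both.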

How the data were processed

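Single cells were sorted into plates and read by CEL-Seq2 at 4 times, and 4 Achilles tendons by bulk RNA-seq. The deposited single-cell table holds UMI counts per gene and well, which the authors made with HISAT2 2.2.1, featureCounts and UMI-tools 1.0.1 on GRCm38. The deposited bulk table holds read counts made with HISAT2 2.0.4 and featureCounts 1.5.0. The 3 entries outside Ensembl (0.0642% of UMIs) were left out. Cells with at least 200 genes were kept, and doublets were not called because each well was sorted to hold 1 cell. UMIs were summed per plate and tested across plates with edgeR 4.0.16 (quasi-likelihood, TMM, filterByExpr, R 4.3.3). Bulk counts were tested the same way. The Epcam comparison used sums per plate and class with plate as a block. Calls are at an adjusted p of 0.05 or less (Benjamini-Hochberg). Alternatives included DESeq2 1.42.0. The fits were tested on simulated data. The precision is limited by 3 plates and 2 tendons per group and by low UMI numbers of the members. Members, gene lists and tests were chosen with earlier results of these data known. All 10 members are named. Of each pathway list, up to 4 called genes with the largest change from T0 to T9 are named, and all EMT factors. For Epcam the 10 largest positive and 5 largest negative called genes are named, and the 3 nearest genes for 4 members. A few items these rules name are not reported here. Jup, Cd44, Cldn1 at T3, and the bulk and later-cell genes beyond these were named after their values were seen.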

Additional observations from a re-analysis of the deposited data

How the results depend on the processing

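At T3, 8 of the 9 falls against T0 (all but Epcam) and in the tendons the rises of Dsp, Krt8 and Krt18 kept direction and call under every alternative run for them, though leaving out 1 tendon leaves a lone sample assumed to vary like the other group. The number of members called from T3 to T6 went from 2 to 1 under total UMI scaling (chosen after seeing the data). It was also 1 with the replicate number as a block and with only the 6 plates compared. It was 3, with Krt7 called, without the low-count filter and without pluripotency-marker cells. The same held with the class of plate, by share of reads outside features, as a covariate. Leaving out 1 plate, the number ranged from 0 to 2. From T6 to T9 it went from 0 to 1 without the low-count filter and ranged from 0 to 2 leaving out 1 plate. At T9 against T0 it was 8, 6 in DESeq2 and 7 to 9 leaving out 1 plate. The calls lost in DESeq2 were those of Cdh1 (adjusted p = 0.0503) and Cldn6 (adjusted p = 0.108). Some uncalled values changed sign. Epcam from T3 to T6 was 0.030 with the block, 0.24 with that covariate, 0.20 in cells with 1000 or more genes and 0.42 without pluripotency-marker cells. Cldn6 from T6 to T9 was 0.0034 in DESeq2, 0.24 with the block and 0.27 without those cells, and Dsp was 0.14 without them. Leaving out 1 plate moved T3 to T6 values from -0.039 to 0.80 (Krt18), -3.77 to 0.11 (Krt19), -0.22 to 0.37 (Cdh1) and -0.36 to 0.16 (Epcam). It moved T6 to T9 values from -0.55 to 0.96 (Krt8) and -0.56 to 1.05 (Cldn6), and Cldn7 at T9 against T0 from -1.10 to 0.17. In the tendons the ranges leaving out 1 sample were -1.43 to 1.63 (Krt19) and -0.21 to 1.47 (Cldn7). The cause was not tested for any of these.

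Counts over all genes that moved by more than 1.5 times were, from T3 to T6, 567 against 899 in DESeq2, 1010 without the filter, 1483 with the covariate, 299 under total UMI scaling and 264 with 6 plates. From T6 to T9 they were 217 against 568, 684, 813, 90 and 45 in the same order, and 113 with the block. In the tendons 560 became 1415 without the filter and 1108 with the block, and for Epcam 3111 became 1903 in DESeq2, 515 after thinning and 1077 without pluripotency-marker cells. Leaving out 1 plate gave 291 (without T6 replicate 1) to 890 (without T6 replicate 2) from T3 to T6, 35 (without T9 replicate 1) to 852 (without T9 replicate 3) from T6 to T9, and 1857 (without T0 replicate 2) to 2710 for Epcam. Total UMI scaling split the calls from T3 to T6 into 162 higher and 137 lower, against 349 and 218, and from T6 to T9 into 27 and 63, against 125 and 92. Deviations of same-numbered plates correlated between -0.563 and 0.515, 4 of 18 pairs above 0.1, and 5 of 12 plates correlated best with their own number, so the pairing by number was taken as a shared name only. Plates of other numbers correlated between -0.563 and 0.488. T3 plate 2 correlated with T6 plates 1 and 3 and T9 plate 3 at 0.444, 0.431 and 0.488. With T6 plate 2 and T9 plates 1 and 2 it gave -0.563, -0.344 and -0.343. The link of this split to the class of plate was not tested. With the replicate block 9 members were called at T3 and 9 at T9 against T0, where Epcam joined (adjusted p = 0.0367 by edgeR). Depth limits the keratins and claudins at T3, where Krt8 and Cldn6 rest on 2 and 3 UMIs.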
